A study of Homo sapiens with 18 samples.

Results

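RNase P and RNase MRP are ribonucleoprotein enzymes of the nucleus that share most of their protein subunits and differ in their RNA. The genes described here are those of the 2 RNAs, RPPH1 (RNase P) and RMRP (RNase MRP), and of 8 protein subunits, POP1, POP4, POP5, POP7, RPP14, RPP30, RPP38 and RPP40. They are 10 of 23713 rows of a table of mean FPKM, a unit that sets fragments against the length of the transcript and the size of the library. The 10 rows were chosen by name, after RMRP and RPPH1 had been seen to differ widely between the columns of this same table, so every value below is a description and no difference was tested. All 10 reached 1 FPKM in at least 1 group and so belong to the 11053 genes kept for comparison. RMRP and RPPH1 were kept with the genes, apart from 1707 rows set aside as small RNAs by their names. Those rows include 1 gene that RefSeq lists as protein-coding, TRNAU1AP. Of the 1707, 230 reached 1 FPKM. Ranks among kept genes leave all of them out, so the number of small RNAs beyond each value is given beside them.

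RNA came from MOLM-13, an established human acute monocytic leukaemia line with an MLL fusion, grown in RPMI medium with serum. Cells were given DMSO (the solvent control), IACS-9571 (a ligand of the TRIM24 and BRPF1 bromodomains) or dTRIM24 (a bromodomain ligand joined to a VHL ligand, a degrader of TRIM24 protein) for 4 h or 24 h, with 3 samples in each of the 6 groups. The labels give no doses, their protocol field names 24 h for every sample where titles and time points give 4 h or 24 h, and nothing says whether samples were separate cultures. The table holds 1 mean per group, so replicate errors cannot be given, read depth is unknown, and neighbouring levels cannot be ranked beyond their spread.

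Myeloid markers were present at 1 FPKM or more in every group for 9 of 10 genes, with CSF1R below that in at least 1 group. Of 10 markers of other cells, 8 stayed under 1 FPKM in all groups; PECAM1 (6.63 to 9.97 FPKM) and KRT18 (22.1 to 29.7 FPKM) did not. Synthetic ERCC RNAs had been mixed in. Over the 25 of them with at least 5 FPKM in each group, the SD of log2 differences lay between 0.11 and 0.22 in the 9 comparisons. The widest single value was 0.88, which is a spread between RNAs and not between replicates. Their median differences lay between -0.06 and 0.02, while those of all kept genes ran from -0.26 to 0.28. The deposited values may thus already be scaled to the spike-ins, which was not tested. In RNA from whole cultures, fewer cells of a type and less RNA per cell cannot be told apart.

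RNase P removes the 5′ leader from precursor tRNAs, and its RNA is the catalytic part. RNase MRP cuts the precursor of ribosomal RNA in its first internal spacer, and inherited variants of its RNA cause cartilage-hair hypoplasia. Both RNAs are made by RNA polymerase III from promoters that lie upstream of the gene and carry a TATA box, and neither has a poly(A) tail, whereas their protein subunits come from ordinary polyadenylated mRNAs.

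The RNA sequences are shown first because length and the missing tail set these transcripts apart from the subunit mRNAs. They are reference sequences of GENCODE release 29, written as DNA, matched by symbol. RMRP is given whole (268 bases) and RPPH1 from base 1 to 300 of 333. Capitals mark the longest run that both hold, 9 bases, at positions 243 to 251 of RMRP and 146 to 154 of RPPH1.
RMRP: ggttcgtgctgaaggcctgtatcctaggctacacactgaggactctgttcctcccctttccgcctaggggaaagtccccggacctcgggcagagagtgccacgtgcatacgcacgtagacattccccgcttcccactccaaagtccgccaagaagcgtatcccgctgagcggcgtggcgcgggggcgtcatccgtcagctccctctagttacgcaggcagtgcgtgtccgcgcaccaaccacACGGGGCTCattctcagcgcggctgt
RPPH1: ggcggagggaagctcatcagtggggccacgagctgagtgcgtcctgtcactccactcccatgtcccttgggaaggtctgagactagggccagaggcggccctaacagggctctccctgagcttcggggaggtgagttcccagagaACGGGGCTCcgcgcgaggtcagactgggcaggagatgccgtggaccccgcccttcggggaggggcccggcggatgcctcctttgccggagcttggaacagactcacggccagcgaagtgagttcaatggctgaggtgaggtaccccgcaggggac

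In these sequences GC makes up 63.1% of RMRP and 64.6% of RPPH1, against a median of 49.7% over 10242 kept genes with a transcript in that release. The longest run of A was 3 bases in RMRP and 2 in RPPH1. By its longest transcript, RMRP was shorter than all but 6 of those genes, which exclude the small RNAs, and RPPH1 shorter than all but 14. The subunit mRNAs ranged from 913 bases for POP5 to 7985 bases for RPP14, with GC from 41.7% for RPP30 to 60.7% for POP7.

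After 4 h RMRP had a level of 12.7 FPKM with DMSO, 26.2 with IACS-9571 and 1196 with dTRIM24. After 24 h its levels were 67.1, 7.25 and 20.2 FPKM in that order. The group given dTRIM24 for 4 h thus stood far above the other 5, which spread between 7.25 and 67.1 FPKM. Between the extremes the ratio of FPKM was 165, and the log2 range of 7.18 was exceeded by 1 kept gene, RPPH1, and by 40 of the 230 small RNAs.

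RPPH1 had 2.01 FPKM with DMSO, 10.7 with IACS-9571 and 493 with dTRIM24 after 4 h, and 23.5, 1.95 and 8.57 FPKM after 24 h. From highest to lowest the 6 groups took the same order for both RNAs: dTRIM24 4 h, DMSO 24 h, IACS-9571 4 h, dTRIM24 24 h, DMSO 4 h and IACS-9571 24 h. For RPPH1 the ratio of the highest to the lowest FPKM was 253, and its log2 range of 7.39 was exceeded by 0 of the 11053 kept genes but by 39 of the 230 small RNAs.

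RMRP was the higher RNA per length in each group. The ratio of RMRP to RPPH1 was 6.32 in DMSO at 4 h, 2.44 with IACS-9571 and 2.43 with dTRIM24 at that time. At 24 h it was 2.86 in DMSO, 3.73 with IACS-9571 and 2.36 with dTRIM24. The widest ratios were in the pair of groups where RPPH1 was near 2 FPKM. In each column 6066 rows share 1 value near 0.1 FPKM. The lowest value of each column lay below the shared one (0.0878 against 0.0998 FPKM with IACS-9571 at 24 h). Whether a constant of about that size was added to all values, and so enters these ratios, was not tested.

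**Figure D1:**
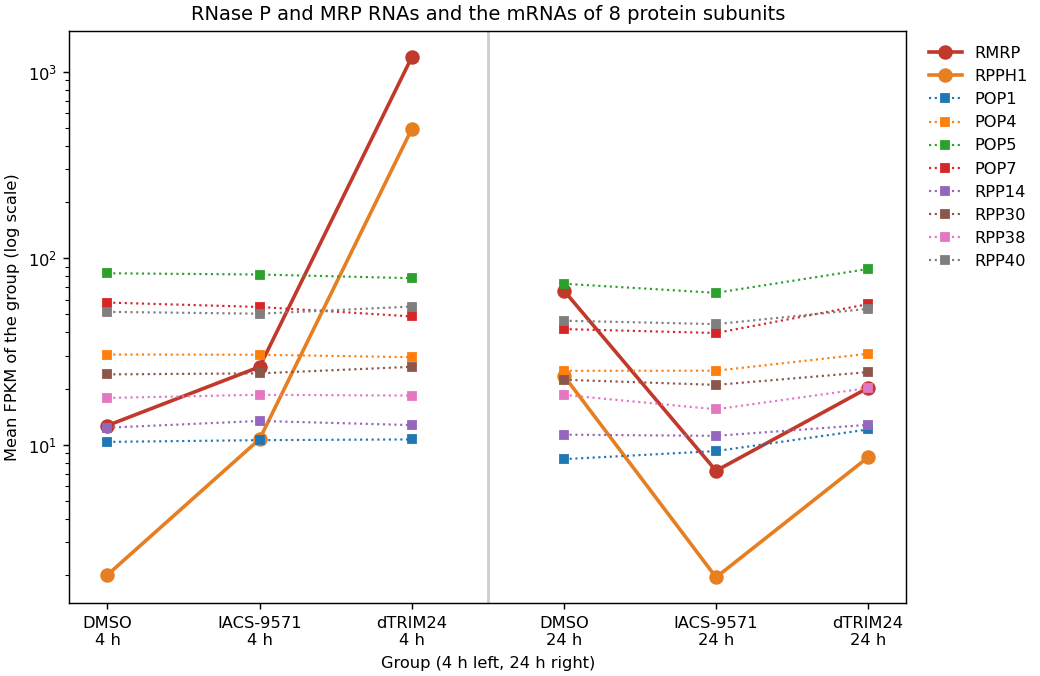
Mean FPKM (log axis) of each of the 10 genes in the 6 groups, 4 h on the left and 24 h on the right; circles are RMRP and RPPH1, squares the subunit mRNAs, and lines only join the groups of a time point. RMRP reaches 1196 FPKM and RPPH1 493 FPKM with dTRIM24 at 4 h, while POP5, the highest subunit mRNA, lies between 65.3 and 87.6 FPKM.

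The mRNAs of the protein subunits, by contrast, stayed within a narrow band. POP1, the largest subunit and a scaffold of both enzymes, had 10.4, 10.6 and 10.7 FPKM in DMSO, IACS-9571 and dTRIM24 at 4 h, and 8.37, 9.25 and 12.1 FPKM at 24 h. It was the lowest of the 8 subunit mRNAs in each group. POP4, also known as RPP29, had 30.5, 30.4 and 29.5 FPKM at 4 h in the same order, and 24.9, 24.9 and 30.8 FPKM at 24 h. Its largest value was 1.23 times its smallest.

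POP5 and RPP14 are related RNA-binding subunits. POP5 had 83.1, 81.8 and 78.2 FPKM at 4 h and 73.0, 65.3 and 87.6 FPKM at 24 h, and was the highest subunit mRNA in each group. RPP14 had 12.3, 13.4 and 12.7 FPKM at 4 h and 11.3, 11.2 and 12.8 FPKM at 24 h. With a ratio of 1.202 between its extremes it varied least among the 10 genes.

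POP7, also known as RPP20, pairs with RPP25 on the RNA. It had 57.9, 54.8 and 48.8 FPKM at 4 h and 41.7, 39.7 and 56.7 FPKM at 24 h. Its ratio of highest to lowest, 1.46, was the largest among the subunits, and its log2 range of 0.53 stood at percentile 80.9 of the kept genes. Over all kept genes the median log2 range was 0.38.

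RPP30, which is also the usual reference gene of droplet PCR assays, had 23.8, 24.1 and 26.2 FPKM at 4 h and 22.3, 20.9 and 24.5 FPKM at 24 h. RPP38, a kink-turn binding protein, had 17.8, 18.5 and 18.3 FPKM at 4 h and 18.5, 15.5 and 20.1 FPKM at 24 h. RPP40 had 51.6, 50.4 and 55.1 FPKM at 4 h and 46.2, 44.3 and 53.6 FPKM at 24 h. No subunit spanned more than 1.46 times from its lowest to its highest group, while the RNAs spanned 165 and 253 times.

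Set against the median of the 8 subunit mRNAs, which lay between 22.9 and 27.8 FPKM, the RNAs moved from below to above. RMRP was 0.47 times that median in DMSO at 4 h, 0.96 times with IACS-9571 and 43.0 times with dTRIM24. At 24 h it was 2.84 times the median in DMSO, 0.32 times with IACS-9571 and 0.73 times with dTRIM24. RPPH1 lay under the subunit median in each group except dTRIM24 at 4 h, where it was 17.7 times that median, although in DMSO at 24 h it came within 1% of it (0.99 times). The subunit median was 13.5 times RPPH1 in DMSO at 4 h, and 11.8 times RPPH1 in the 24 h group given IACS-9571. These are levels per length of transcript and say nothing of the amount of assembled enzyme.

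With dTRIM24 at 4 h, 0 of the 8 subunit mRNAs exceeded either RNA. RMRP then stood at percentile 99.1 and RPPH1 at percentile 98.3 of the kept genes by FPKM, and RMRP alone made up 0.123% of the column total. In DMSO at 4 h RMRP stood at percentile 51.2 and RPPH1 at percentile 11.5.

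The differences that follow are of log2(FPKM + 1) between group means, which makes changes of low genes look smaller. A gene is counted as past 2-fold from a difference of 1 upwards, in either direction. Comparisons with the same group share its mean and are not independent. With dTRIM24 against DMSO at 4 h, 2 of the 10 genes were past 2-fold, against 0.688% of all kept genes in either direction. Because RMRP and RPPH1 were chosen on these columns, nothing is read from the contrast of these shares, here or in the comparisons below. RPPH1 differed by 7.36 and RMRP by 6.45, the highest and the next highest of the 11053 kept genes. Among the 230 small RNAs 11 exceeded RPPH1 and 17 exceeded RMRP, up to 9.15 for MIR663A. The subunit mRNAs lay between -0.24 (POP7) and 0.13 (RPP30), with 5 above and 3 below DMSO, also under each scaling tried. Their median was 0.04, beside -0.01 over all kept genes.

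With IACS-9571 against DMSO at 4 h, 1 of the 10 genes was past 2-fold and the share of kept genes was 0.29%. RPPH1 differed by 1.96, the 8th highest value among kept genes, and 42 small RNAs were higher. RMRP, at 0.99, lay just under the bound, and passed it with a smaller pseudocount (1.02 at 0.5 FPKM and 1.04 at 0.1 FPKM) and once a trend on GC content was removed (1.06). The subunit mRNAs lay between -0.08 (POP7) and 0.11 (RPP14), with 4 on each side of DMSO (1 above and 7 below when rescaled to spike-ins).

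Set directly against each other at 4 h, dTRIM24 exceeded IACS-9571 by 5.46 for RMRP and 5.40 for RPPH1, the 2 highest of all kept genes, of which 0.597% were past 2-fold. Each was exceeded by 19 small RNAs. The ratios of FPKM were nearly equal, 45.7 for RMRP and 46.0 for RPPH1. The compounds differ at least by the VHL part of dTRIM24, and no doses are given to match them. Among the subunits 3 were above and 5 below IACS-9571 (7 above and 1 below when rescaled to spike-ins), from -0.16 (POP7) to 0.13 (RPP40).

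At 24 h both RNAs lay lower with either compound than with DMSO. With IACS-9571 the differences were -3.05 for both RMRP and RPPH1, ratios of DMSO to IACS-9571 of 9.26 and 12.1, and 2 of 10 genes were past 2-fold where 0.172% of kept genes were. They were the 8th and 7th lowest values of all kept genes, and 37 small RNAs were lower than either. The subunit mRNAs lay between -0.24 (RPP38) and 0.13 (POP1), with a median of -0.06 beside -0.02 over all kept genes.

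With dTRIM24 at 24 h RMRP differed from DMSO by -1.68 and RPPH1 by -1.35, the third and the fifth lowest values of kept genes with 38 and 42 small RNAs below them, and again 2 of 10 genes were past 2-fold, beside 0.199% of kept genes. All 8 subunit mRNAs lay above DMSO here, by 0.12 (RPP38) to 0.48 (POP1), but only 3 of 8 after median centring, 4 after quantile normalization and 5 with the GC trend removed. The median over kept genes was 0.26, and relative to it the subunits had a median of -0.02. Relative to the all-gene median RMRP stood at -1.94 and RPPH1 at -1.61.

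Against IACS-9571 at 24 h, dTRIM24 was higher by 1.36 for RMRP and 1.70 for RPPH1, and 2 of 10 genes passed 2-fold beside 0.217% of kept genes. With the GC trend taken out RMRP stood at 0.91, under the bound. The 8 subunits were all higher as deposited and 4 of 8 after median centring, with a median of 0.32 beside 0.28 over all kept genes. The sign of both RNAs against DMSO thus differed between the times for each compound: from 4 h to 24 h the difference of RMRP moved by -4.04 with IACS-9571 and by -8.14 with dTRIM24, and that of RPPH1 by -5.02 and -8.71. Whether these changes exceed the spread between samples was not tested.

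**Figure D2:**
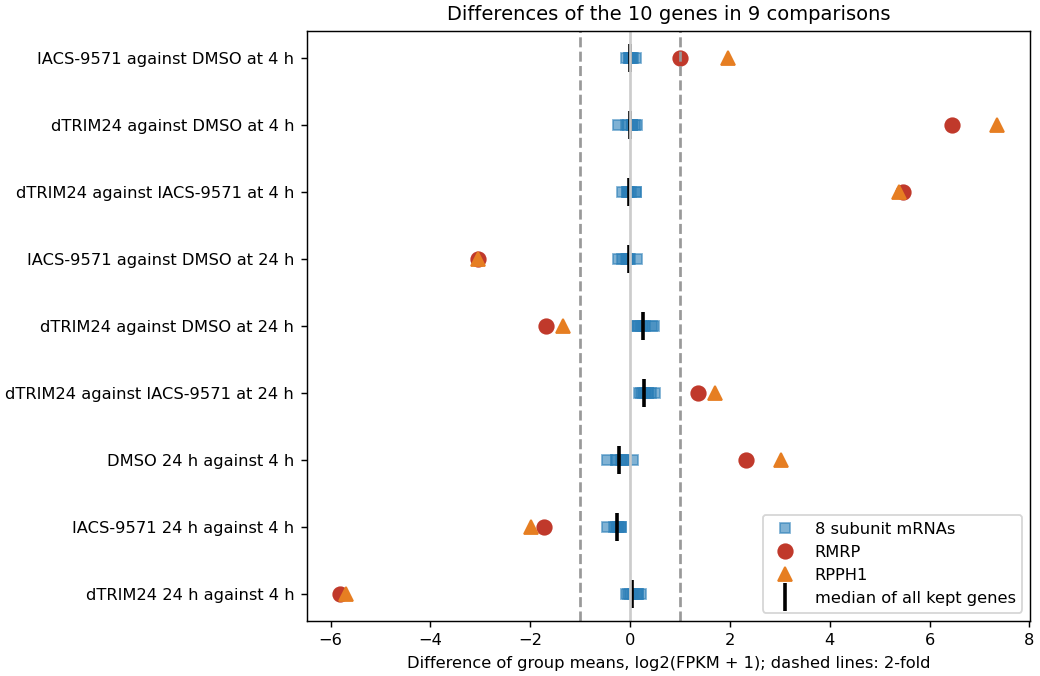
Differences of log2(FPKM + 1) between group means in the 9 comparisons for RMRP (circles), RPPH1 (triangles) and the 8 subunit mRNAs (squares), with the median of all kept genes as a bar and 2-fold as dashed lines. The subunits stay near the all-gene median, while RPPH1 reaches 7.36 with dTRIM24 against DMSO at 4 h and RMRP -5.82 between 24 h and 4 h of dTRIM24.

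The DMSO groups themselves differed. Between 24 h and 4 h of DMSO, RMRP was higher by 2.32 and RPPH1 by 3.02, ratios of 5.29 and 11.7, so 2 of 10 genes were past 2-fold beside 0.217% of kept genes. They took the 7th and 6th highest places among kept genes, with 43 and 36 small RNAs above them, while the median over kept genes was -0.22. Of the subunits only RPP38 was higher at 24 h as deposited (0.05), but 5 of 8 were after median centring and 0 when rescaled to spike-ins, and POP7 was the lowest at -0.46. Against DMSO at 4 h (12.7 FPKM for RMRP), the 24 h groups of IACS-9571 and dTRIM24, at 7.25 and 20.2 FPKM, lay on either side.

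From 4 h to 24 h of IACS-9571 RMRP differed by -1.72 and RPPH1 by -1.99, again 2 of 10 genes, beside 0.443% of kept genes, with an all-gene median of -0.26. All 8 subunits were lower as deposited and 2 of 8 after median centring. From 4 h to 24 h of dTRIM24 they differed by -5.82 and -5.69, the lowest values of all kept genes, beside 0.67% past 2-fold, with 9 and 10 small RNAs lower still. POP7 (0.21) and RPP30 (-0.09) marked the range of the subunits in that last comparison.

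Other subunits and the related gene C3orf17 were also within 2-fold. After 4 h RPP21, a subunit of RNase P and not of RNase MRP, had 38.2, 37.3 and 31.2 FPKM with DMSO, IACS-9571 and dTRIM24, but its gene overlaps the read-through gene TRIM39-RPP21 and its value is uncertain. RPP25, the partner of POP7, had 33.01, 30.5 and 29.3 FPKM. Its paralog RPP25L had 19.9, 17.8 and 16.5 FPKM, and C3orf17, the older name of NEPRO and not counted as a subunit here, had 12.0, 12.1 and 13.2 FPKM. None of these 4 was past 2-fold in any of the 9 comparisons, beside 0.172% to 0.688% of all kept genes. With dTRIM24 against DMSO at 4 h the median of the 4 was -0.21. The largest difference among them was 0.50, for RPP25 with dTRIM24 against DMSO at 24 h.

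Of the protein-only RNase P of mitochondria, TRMT10C stood at 51.5 FPKM (DMSO) and 62.1 FPKM (dTRIM24) after 4 h, HSD17B10 had 92.9 FPKM and 76.9 FPKM, and KIAA0391, the nuclease PRORP, had 23.03 FPKM and 24.0 FPKM. Past 2-fold were 0.172% to 0.688% of all kept genes per comparison. Of 11 genes of tRNA end processing and splicing, 0 passed 2-fold in any comparison, and with dTRIM24 at 4 h their median was -0.04. SSB, the La protein that binds the ends of polymerase III transcripts, had the highest difference there, with 200.02 FPKM against 165 FPKM. The widest of the list over all comparisons was TSEN34, a subunit of the tRNA splicing nuclease, at -0.60 between 24 h and 4 h of DMSO. Of 13 nucleolar genes of rRNA and snoRNP assembly 0 passed 2-fold either, with a median of 0.01 for dTRIM24 against DMSO at 4 h. With shares that low over all kept genes, nothing is read from these counts.

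RNA polymerase III and the factors of its upstream promoters were measured through 23 mRNAs, and 0 passed 2-fold in any comparison. Among all kept genes 0.172% to 0.688% did so per comparison, so nothing is read from that count. With dTRIM24 against DMSO at 4 h 11 lay above and 12 below DMSO, with a median of -0.01. POLR3G, a polymerase subunit, had the highest difference, at 13.4 FPKM against 10.99 FPKM, and SNAPC2, of the complex that binds the proximal element, the lowest, at 7.47 FPKM against 9.70 FPKM. MAF1, a repressor of the polymerase, had 68.5 FPKM against 83.2 FPKM. At 24 h all 23 lay above DMSO with dTRIM24, by a median of 0.33, but 16 above and 7 below the all-gene median of 0.26, and SNAPC4 was the widest at 0.73 (4.18 FPKM against 2.11 FPKM).

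Each of the RNA genes starts back to back with a protein-coding gene, and the sequence before the coding gene is shown because it covers most or all of the stretch between the starts. In the RefSeq annotation of GRCh38.p14 272 bases separate the starts of RMRP and CCDC107, and 223 bases those of RPPH1 and PARP2. The windows are the 250 bases before CCDC107 and before PARP2 on the plus strand, from the RefSeq promoter table of that build. The CCDC107 window stops short of the start of RMRP, while 27 bases of the PARP2 window, at its 5′ end, lie inside RPPH1. Entries for RMRP and RPPH1 were not used. Capitals mark the octamer ATTTGCAT or its complement ATGCAAAT, and TATAA or its complement TTATA, which were searched on both strands.
CCDC107, GRCh38.p14, chr9:35658042-35658291, plus strand: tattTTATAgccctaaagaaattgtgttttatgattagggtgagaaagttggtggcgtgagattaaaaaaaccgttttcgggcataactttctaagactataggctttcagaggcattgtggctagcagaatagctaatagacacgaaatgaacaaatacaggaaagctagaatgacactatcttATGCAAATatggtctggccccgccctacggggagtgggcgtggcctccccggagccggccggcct
PARP2, GRCh38.p14, chr14:20343385-20343634, plus strand: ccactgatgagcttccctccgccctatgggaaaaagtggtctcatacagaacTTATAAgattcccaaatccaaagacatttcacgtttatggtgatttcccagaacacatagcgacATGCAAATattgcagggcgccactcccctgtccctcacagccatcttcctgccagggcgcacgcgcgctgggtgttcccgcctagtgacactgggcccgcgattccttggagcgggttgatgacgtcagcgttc

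Both windows held 1 octamer, read on the strand of the RNA gene, 208 to 215 bases before the start of RMRP and 90 to 97 bases before that of RPPH1. A TATAA on that strand lay 27 to 31 bases before RMRP and 26 to 30 bases before RPPH1. At RPPH1 the match overlaps a TATAA on the other strand, as the letters read nearly the same both ways. Among 35116 windows of 250 bases in the table, 1.63% held the octamer, 18.9% held TATAA and 0.490% held both. A match in letters is a description of the sequence and not evidence that a factor binds.

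PARP2, a poly(ADP-ribose) polymerase, had 22.5, 25.1 and 23.4 FPKM in DMSO, IACS-9571 and dTRIM24 at 4 h and 21.2, 20.9 and 26.2 FPKM at 24 h. CCDC107 had 7.40, 5.25 and 5.64 FPKM at 4 h and 4.68, 5.08 and 6.34 FPKM at 24 h. Where RMRP stood at 1196 FPKM, CCDC107 was thus below its own DMSO value, by 0.34 on the log2 scale, and PARP2 was 0.05 above.

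Most histone mRNAs of the replication-dependent clusters carry a stem-loop in place of a poly(A) tail. The rows counted here were taken by name, and whether each of them lacks a tail was not checked. Of 72 such rows 53 were kept, and 50 of these were at least 2-fold above DMSO after 4 h of dTRIM24, with a median of 3.11. Among all kept genes 0.688% were past 2-fold there in either direction. A row was kept if any group reached 1 FPKM, so the filter itself favours rows high only with dTRIM24 at 4 h. Between 24 h and 4 h of dTRIM24 all 53 were lower, 50 of them past 2-fold beside 0.67% of kept genes, with a median of -2.96. In IACS-9571 against DMSO at 24 h their median was -0.47 with 7 lower past 2-fold, beside 0.172% of kept genes. In DMSO over time it was 0.44 with 3 higher, beside 0.217%. The histone rows did not go with RMRP and RPPH1 in every comparison. From 4 h to 24 h of IACS-9571 their median was -0.26, as over all kept genes. With dTRIM24 against IACS-9571 at 24 h it was 0.15, below the 0.28 of all kept genes. With IACS-9571 against DMSO at 4 h it was 0.24, and 0 passed 2-fold, beside 0.29% of kept genes. Small RNAs by name were less uniform: of 230 that reached 1 FPKM, 109 were higher and 34 lower past 2-fold against DMSO after 4 h of dTRIM24 (62.2% in all, median 0.71). After 4 h of IACS-9571 52 were higher and 40 lower past 2-fold (40% in all, median 0.01), beside 0.29% of kept genes. Some of these rows lie, in a group compared, near the 0.1 FPKM shared by 6066 rows. VTRNA1-1, for example, had 0.0921 FPKM in DMSO and 24.2 FPKM with IACS-9571 at 4 h. Nothing is therefore read from the shares of small RNAs.

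**Figure D3:**
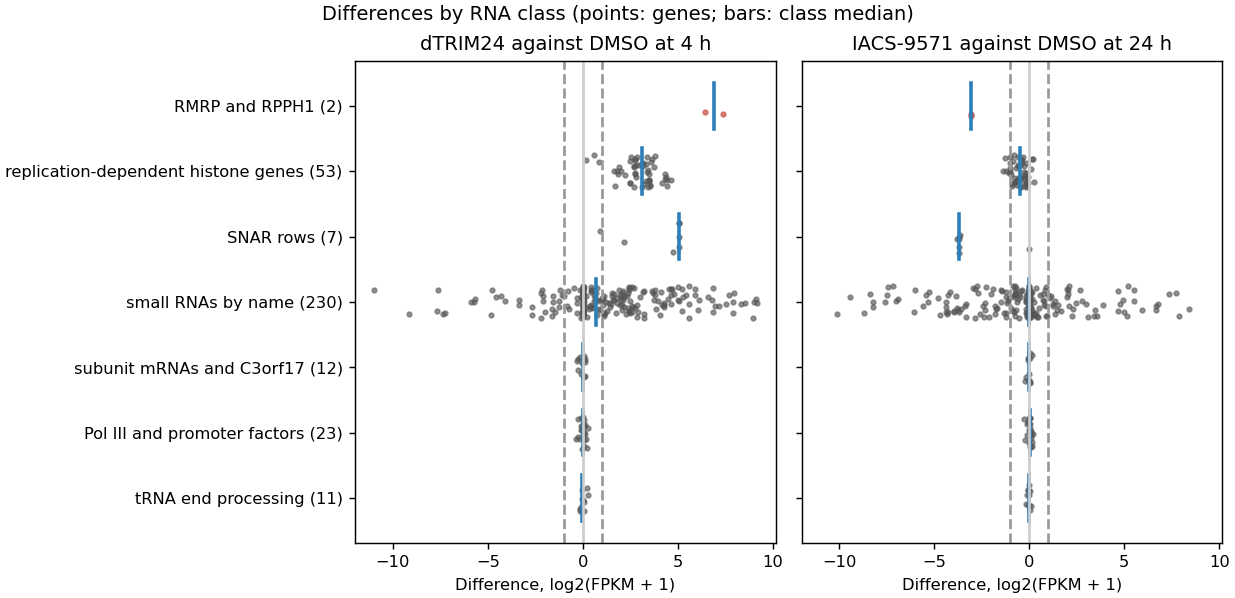
Differences of log2(FPKM + 1) by RNA class for dTRIM24 against DMSO at 4 h (left) and IACS-9571 against DMSO at 24 h (right); points are genes, blue bars class medians, dashed lines 2-fold, and the number of genes is in brackets. On the left all histone genes (median 3.11) and SNAR rows lie above 0, as RMRP and RPPH1 do. The 7 SNAR rows are those of 22 that reached 1 FPKM, while 15 lay under 0.2 FPKM in all groups. SNAR-A1, SNAR-A12, SNAR-A13 and SNAR-A2 hold the same values and are not separate measurements. SNAR-B1 is at 0.89, and SNAR-G1 reached 1 FPKM only with dTRIM24 at 4 h (3.93 FPKM). On the right 49 of 53 histone genes lie below 0 and 4 above. SNAR-G1 is at -0.01 there, while the other SNAR rows, near-identical copies of a polymerase III transcript, lie between -3.79 and -3.63. These other rows had 0.0950 to 0.0976 FPKM with IACS-9571 at 24 h, close to the value shared by 6066 rows. So were the SNAR-A rows shown in DMSO at 4 h (0.0945 FPKM). The size of such differences depends on the pseudocount. Small RNAs spread both ways, and mRNAs of subunits, polymerase III factors and tRNA processing stay near 0.

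Of 83 kept genes whose longest transcript has at most 600 bases, 31 were past 2-fold higher with dTRIM24 against DMSO at 4 h. Among all kept genes 0.688% were past 2-fold in either direction. All 31 were among the 32 that are histone genes, SNAR genes, RMRP or RPPH1. Of the other 51 short genes 0 were past 2-fold, with a median of -0.06. RMRP and RPPH1 were chosen on these columns, and rows high only in that group pass the floor of 1 FPKM through it. Nothing is therefore read from this contrast. Whether the share of RNA without a tail that entered the libraries differed between groups was not tested, as the labels name total RNA and no selection step.

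The 5 rows most like each RNA were sought by Pearson correlation of log2(FPKM + 1) over the 6 group means, among 372 other rows with at least 1 FPKM and a log2 range of at least 1. Nearest to RMRP were SNORA71C (r = 0.995), RPPH1 (0.991), HIST1H1B (0.990), HIST1H4E (0.986) and HIST1H4B (0.986). Nearest to RPPH1 were SNORA71C (0.998), SNORA48 (0.993), RMRP (0.991), HIST1H4E (0.985) and SNORA49 (0.982). SNORA71C, SNORA48 and SNORA49 are box H/ACA small nucleolar RNAs, and the HIST rows code for linker histone H1 and histone H4. The 6 points are means of the same groups for every row, and in each of these rows dTRIM24 at 4 h lies above the other 5. The HIST rows had at most 1.83 FPKM in the other groups, so their r depends much on that peak. HIST1H4E lay at 0.0916 FPKM with IACS-9571 at 24 h, close to the value shared by 6066 rows.

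**Figure D4:**
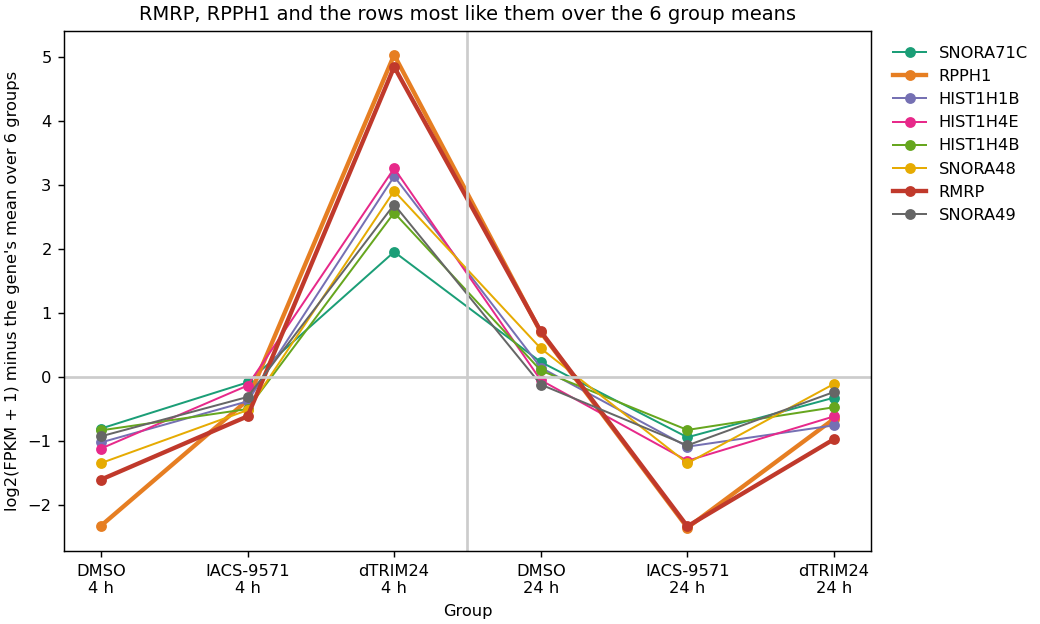
Profiles of RMRP, RPPH1 and the rows most like them over the 6 group means, as log2(FPKM + 1) minus each row's own mean; lines only join the groups. All 8 rows peak with dTRIM24 at 4 h, and SNORA48 goes from 14.1 FPKM in DMSO to 288 FPKM there.

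Of 373 rows with that range, 155 were highest with dTRIM24 at 4 h, and 14 had all 6 groups in the order of RMRP. These 14 were RMRP and RPPH1 themselves, 9 histone genes, SNORA71C, SNORD15B and MIR663A. The 88 remaining rows were those of no histone, SNAR or small RNA and not RMRP or RPPH1. Of them 6 were highest with dTRIM24 at 4 h and 0 had the order of RMRP. Rows high only with dTRIM24 at 4 h pass the floor and the range through that group, and RMRP was chosen on these columns. Nothing is therefore read from these counts.

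MALAT1 and NEAT1, nuclear RNAs whose ends are cut by RNase P, were low in this table. MALAT1 had 0.911, 1.05 and 3.58 FPKM in DMSO, IACS-9571 and dTRIM24 at 4 h and 1.011, 1.003 and 1.39 FPKM at 24 h. NEAT1 had 1.64, 2.16 and 1.95 FPKM at 4 h and 1.63, 2.19 and 3.32 FPKM at 24 h. MALAT1, like RMRP, was highest with dTRIM24 at 4 h, whereas NEAT1 was highest with dTRIM24 at 24 h.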

How the data were processed

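The authors deposited FPKM as 1 mean per group. The submitters' processing notes name TopHat2, Cuffnorm and hg19, without versions, and neither annotation nor strandedness is given in the sources used here. Cell counts were equalized and ERCC RNAs mixed in, per the labels' protocols. Columns were tied to groups by the sample titles.

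Spike-ins (92 rows) and small RNAs by name (1707 rows, 1 of them the protein-coding TRNAU1AP) were set aside, and genes with at least 1 FPKM in a group were kept. Differences were taken of log2(FPKM + 1). The limma fit foreseen for values per library could not be made on means, so no test was run. Named were all 10 genes, from each list up to 4 genes by absolute difference, and the 5 rows most like each RNA; further list members and marker genes such as KRT18, PECAM1 and CSF1R were named after their values were seen. The members and lists were chosen with earlier results of these data known.

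GC content and length came from GENCODE release 29 transcripts by symbol (92.7% of kept genes), a newer build than the authors'. Steps were tested on simulated data. Alternatives covered pseudocounts, filters, scalings, a 1.5-fold threshold and GC content. Python 3.11.15, numpy 2.4.6, pandas 2.3.3 and matplotlib 3.10.9 were used.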

Additional observations from a re-analysis of the deposited data

How the results depend on the processing

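In 7 of the 9 comparisons the count of genes past 2-fold among the 10 was the same under the 9 alternatives run. For IACS-9571 against DMSO at 4 h it was 1 and became 2 with pseudocounts of 0.1 and 0.5 FPKM, with a 1.5-fold threshold and with the GC trend taken out, as RMRP lies at the bound. For dTRIM24 against IACS-9571 at 24 h it was 2 and became 1 with the GC trend taken out. No difference of RMRP or RPPH1 past 2-fold turned its sign. RPPH1 with dTRIM24 against DMSO at 4 h ranged from 7.33 to 7.87 and RMRP from 6.44 to 6.61. For the 8 subunit mRNAs, 64 of 648 values turned sign or reached 0, all within 2-fold and mostly under other scalings, and the largest difference was 0.55 (POP7, dTRIM24 against IACS-9571 at 24 h, rescaled to spike-ins). No paired analysis was possible because the table holds 1 mean per group, and for the same reason no replicate could be left out. Depth is unknown, so no counting error can be given, which limits most the levels near 2 FPKM.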

Other observations

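Other short RNAs made by RNA polymerase III, or lacking a tail, were listed for comparison with RMRP and RPPH1. Of 26 names beside the SNAR rows 13 are in the table, and 4 of these lay under 0.2 FPKM in all groups. The other 9 reached 1 FPKM in a group, 6 of them highest with dTRIM24 at 4 h. TERC, VTRNA1-3 and SCARNA2 reached 1 FPKM in that group alone, so their part in this count follows from the floor. RNU11, the U11 RNA of the minor spliceosome, after 4 h had 0.0982, 7.44 and 134 FPKM with DMSO, IACS-9571 and dTRIM24. Its DMSO value at 4 h is close to the value shared by 6066 rows. At 24 h RNU11 had 20.4, 8.13 and 11.9 FPKM in the same order. RNU12 had 26.4 FPKM with dTRIM24 at 4 h and 4.96 FPKM in DMSO at 24 h, and SCARNA2, a Cajal body RNA, 5.52 FPKM with dTRIM24 at 4 h and 0.324 FPKM or less elsewhere. TERC, the telomerase RNA, reached 1.23 FPKM in that group alone.

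Some of these RNAs did not follow RMRP. BCYRN1, a polymerase III transcript of nerve cells, was highest in DMSO at 24 h (5.41 FPKM) and had 3.01 FPKM with dTRIM24 at 4 h. RNU6ATAC was highest in DMSO at 24 h (10.3 FPKM) and had 6.12 FPKM in DMSO at 4 h and 5.21 FPKM with dTRIM24 at 24 h. It lay at 0.103 FPKM with dTRIM24 at 4 h, and at 0.0994 and 0.0961 FPKM with IACS-9571 at 4 h and 24 h. These low values are close to those shared by 6066 rows. The vault RNA VTRNA1-1 stood at 24.2 FPKM with IACS-9571 at 4 h, and VTRNA1-3 at 74.0 FPKM with dTRIM24 at 4 h. Each lay near 0.1 FPKM, close to the value shared by 6066 rows, in the other 5 groups.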
